A study of Mus musculus with 46 samples.

Results

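The genes described here are the extracellular part of the mouse Wnt pathway: the secreted Wnt ligands, the Frizzled receptors, and the secreted Sfrp and Dkk inhibitors. They were chosen by symbol alone (Wnt, Fzd, Sfrp1 to Sfrp5 and Dkk1 to Dkk4 with their numbers), with no measured value used, which gave 37 of the 37108 genes in the time-course table: 19 ligands, 10 Frizzled receptors, 4 Sfrp genes (Sfrp1, Sfrp2, Sfrp4 and Sfrp5) and 4 Dkk genes. The same 37 symbols were found among the 35976 symbols of a second table of established lines, where they were spread over 77 of 106520 transcripts that were summed by symbol. Of the 37 genes, 32 passed the filter on low values in the time course (at least 1 FPKM in at least 2 libraries) and were tested, while Dkk4, Wnt3a, Wnt8b, Wnt9b and Wnt10b were not.

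Poly(A) RNA was sequenced while mouse embryonic fibroblasts (MEF) from OG2 embryos, which carry an Oct4-GFP reporter, were converted towards induced pluripotent stem cells (iPSC). Cells received retroviral Oct4 with either Nanog (NanogWT, labelled Nanog+Oct4) or NanogN70 (NanogBiD), in which the N-terminal BRG1-interacting domain of SS18 is joined to Nanog. Each combination was sampled on 8 days after infection, from D0 to D12, which gave 31 libraries in 16 groups, with 2 libraries in 15 groups and 1 for NanogBiD D8. The paper sets D0 at the end of the rounds of infection, so D0 cells had already received the factors. A difference at D0 therefore need not precede their action. There were also 2 MEF samples, 1 mouse embryonic stem cell sample (mES, OG2) and 12 iPSC samples, 6 from each combination. All infected groups carry Oct4 and the reporter, so by design the combinations differ in the form of Nanog alone. The measured RNA of Nanog and Oct4 also differed between them at D7, as given below. Every group was bulk RNA from a mixed culture in which fewer cells of a type and less RNA per cell cannot be told apart. Both combinations were kept in iCD3 medium to about D7 and then in N2B27 with 2iL (LIF, the GSK3 inhibitor CHIR99021 and the MEK inhibitor PD0325901), the medium in which mES and iPSC were also kept. The composition of iCD3 is not given in the sources used here. CHIR99021 acts on the pathway below its receptors, so the later libraries of both combinations come from cells in which GSK3 is inhibited whatever their ligands do.

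Wnt ligands are lipid-modified secreted proteins that bind Frizzled receptors together with the co-receptors Lrp5 and Lrp6. In the canonical branch this stops the destruction complex around Axin, Apc and GSK3 from removing beta-catenin, which then enters the nucleus and acts with TCF/LEF factors on targets such as Axin2 and Sp5. A second set of ligands, typified by Wnt5a, signals mainly through Ror receptors and the cytoskeleton. Sfrp proteins carry a Frizzled-like domain and bind ligands outside the cell, whereas Dkk proteins bind Lrp5 and Lrp6, with Dkk3 an exception that does not act as a typical Lrp antagonist. In mouse embryonic stem cells, GSK3 inhibition supports self-renewal, and in fibroblasts Wnt5a is among the well known ligands.

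Values are FPKM (fragments scaled to transcript length and to the mapped fragments of the library), so levels may be set beside each other between genes. Differences were tested with limma on log2(FPKM + 1) and called at an adjusted p under 0.05 (Benjamini-Hochberg over all 16842 genes tested) with a difference of at least 1 on the log2 scale. Fold changes on this scale understate the change of genes at low values. Dkk1, Sfrp5, Wnt1, Wnt3, Wnt7a and Wnt8a reached 1 FPKM in at least 2 libraries with NanogBiD alone. Wnt2, Wnt2b and Wnt11 did so with NanogWT alone. They passed the filter through the arm where they are high, so that filter favoured a difference towards that arm. Their differences between the combinations, with the p-values, are therefore a description. The direction was not fixed on every day: at D7 Wnt2 was 0.520 and 0.463 FPKM with NanogBiD and 0.122 and 0.133 FPKM with NanogWT. Each value below after "±" is the standard error of the log2 difference, and n = 2 libraries per group unless stated. Relative sequencing depth, read from the smallest steps of the values, lay between 0.872 and 1.10 in the D0 to D7 libraries, between 0.810 and 1.02 in the NanogBiD D8 to D12 libraries and between 1.85 and 3.18 in the NanogWT D8 to D12 libraries, so that from D8 on depth and combination cannot be told apart. Within NanogWT, depth also cannot be told apart from day or medium in comparisons of D8 to D12 with earlier days. Replicates correlated at r = 0.961 to 0.990 across genes. Nanog and Pou5f1 (Oct4), transgene and native gene together, stood at 450.3 to 684 FPKM and at 1690 to 3200 FPKM in the 4 D0 libraries and at 0.235 FPKM or less and 0.273 FPKM or less in MEF. A list of 12 pluripotent cell markers that holds these 2 genes summed to 2631 to 3511 FPKM with NanogBiD and 5855 to 7770 FPKM with NanogWT at D7. Without them the other 10 summed to 103 to 117 FPKM and 5.37 to 6.12 FPKM. The RNA of the 2 genes together was thus higher with NanogWT at D7, and its part in the differences below was not tested. The 12 fibroblast markers summed to 8415 to 8701 FPKM in MEF, and all 12 were above 0 there, against 66.6 FPKM in mES, where Col3a1, Lum, Twist2 and Postn were at 0. At D12 the same sum was 953 to 1377 FPKM with NanogBiD and 5310 to 5727 FPKM with NanogWT, while 10 pluripotent cell markers without Nanog and Pou5f1 summed to 1308 to 2361 FPKM and 174 to 239 FPKM. At D0 a list of 5 macrophage markers summed to 49.1 to 138 FPKM, against 3.93 to 7.42 FPKM in MEF. Epithelial markers summed to 69.9 to 142 FPKM with NanogBiD and 4.39 to 13.0 FPKM with NanogWT at D12, endothelial markers to 15.4 to 28.2 FPKM and 4.16 to 5.77 FPKM, and smooth muscle markers to 11.6 to 18.2 FPKM and 84.5 to 126 FPKM, while 4 primitive endoderm markers summed to 10.9 FPKM or less in all groups. What these cell mixtures contribute to the levels below was not tested.

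As a look at the DNA in front of these genes, 28 promoters (250 bases before to 50 after a start, RefSeq, GRCm38.p6) were matched by symbol to 25 of the 37 genes. Without an entry were Dkk3, Dkk4, Fzd2, Fzd3, Fzd6, Fzd8, Sfrp1, Sfrp4, Wnt5a, Wnt7b, Wnt8a and Wnt10a. They were searched on both strands for the TCF/LEF core written as CTTTGAT or CTTTGAA, which do not overlap each other. A match stood in 3 of the 25 genes (12.0%), namely Dkk1, 1 of the 2 starts of Wnt11 and 1 of the 3 starts of Wnt5b, against 2671 of 27025 genes with a promoter in the table (9.88%). The 250 bases before the start are shown for these 3 genes because they hold the match, and for Fzd10 because it rose most among the receptors with NanogBiD, with the matched letters in capitals. Dkk1 is read from the minus strand at chr19:30549497-30549746, Wnt5b from the minus strand at chr6:119449387-119449636, Wnt11 from the plus strand at chr7:98834862-98835111 and Fzd10 from the plus strand at chr5:128600856-128601105.
Dkk1: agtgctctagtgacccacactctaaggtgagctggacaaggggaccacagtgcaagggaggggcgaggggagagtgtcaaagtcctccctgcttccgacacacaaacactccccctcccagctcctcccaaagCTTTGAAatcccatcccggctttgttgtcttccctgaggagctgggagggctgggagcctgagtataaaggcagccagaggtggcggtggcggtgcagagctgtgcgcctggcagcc
Wnt5b: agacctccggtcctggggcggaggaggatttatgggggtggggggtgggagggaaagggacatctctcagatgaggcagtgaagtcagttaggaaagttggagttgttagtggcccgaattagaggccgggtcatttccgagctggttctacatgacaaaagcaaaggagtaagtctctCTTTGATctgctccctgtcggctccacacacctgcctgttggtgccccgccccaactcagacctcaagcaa
Wnt11: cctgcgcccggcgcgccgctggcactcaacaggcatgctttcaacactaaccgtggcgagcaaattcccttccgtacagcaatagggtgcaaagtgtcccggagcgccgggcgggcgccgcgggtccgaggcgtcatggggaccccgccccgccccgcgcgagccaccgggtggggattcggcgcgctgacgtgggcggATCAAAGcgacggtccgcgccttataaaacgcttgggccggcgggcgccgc
Fzd10: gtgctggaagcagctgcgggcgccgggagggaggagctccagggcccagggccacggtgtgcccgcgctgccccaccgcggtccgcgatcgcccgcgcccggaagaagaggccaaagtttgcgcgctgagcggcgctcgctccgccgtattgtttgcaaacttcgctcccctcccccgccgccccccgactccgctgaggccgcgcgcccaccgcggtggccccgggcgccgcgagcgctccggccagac
The capitals end 110 bases before the start in Dkk1, 64 in Wnt5b and 44 in Wnt11, and the Wnt11 match lies on the opposite strand. The Fzd10 stretch holds neither spelling, which says nothing about binding elsewhere.

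Wnt5a, the leading ligand of the starting cells, moved in opposite directions in the 2 combinations. Wnt5a took 46.4% and 53.1% of the summed ligand FPKM in the 2 MEF samples and was the leading ligand in all NanogWT libraries. With NanogWT it went from 19.3 and 26.2 FPKM at D0 to 40.0 and 40.4 FPKM at D7 and 60.4 and 67.8 FPKM at D12. With NanogBiD it was 29.2 and 26.9 FPKM at D0, 18.2 and 19.4 FPKM at D7, 11.0 FPKM in the single D8 library, and 5.09 and 6.87 FPKM at D12. From D3 on every NanogBiD library lay below both NanogWT libraries of its day, whereas at D0 NanogBiD was the higher. The D12 level rose over D0 with NanogWT by 1.47 ± 0.18 (adjusted p = 2.2e-06, limma) and fell by 2.07 ± 0.18 (7.2e-09) with NanogBiD, and the difference between these changes was -3.53 ± 0.25 (5.8e-09). Between the combinations the difference was -1.06 ± 0.18 at D7 (1.7e-04), -3.27 ± 0.18 at D10 (4.5e-11) and -3.23 ± 0.18 at D12 (5.1e-11). In mES Wnt5a is listed at 0. The fibroblast markers moved the same way: 11 of the 12 were called lower with NanogBiD at D12, and what part of the Wnt5a difference goes with them was not tested.

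**Figure D1:**
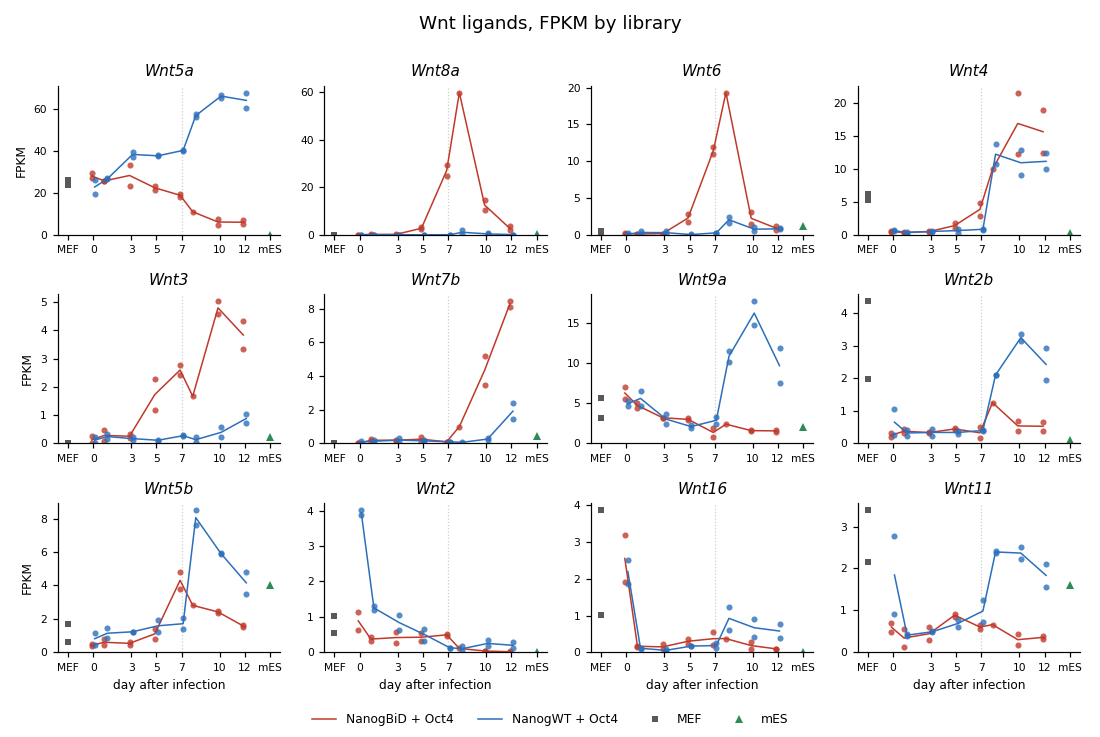
FPKM of 12 Wnt ligands by library (points) and group mean (lines) over the days after infection, NanogBiD in red and NanogWT in blue, with MEF (squares) left and mES (triangle) right; the dotted line marks D7 and each panel has its own FPKM axis from 0. Wnt5a was higher with NanogWT from D3 on, reaching 60.4 and 67.8 FPKM with NanogWT at D12, while Wnt8a and Wnt6 formed a pulse with NanogBiD that was highest in the single D8 library.

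Wnt8a and Wnt6 came up with NanogBiD as a pulse that was highest in the single D8 library. Wnt8a, a ligand of the early embryo, was at 0.326 FPKM or less in every library up to D3. It then stood at 2.40 and 3.08 FPKM at D5, 29.3 and 24.9 FPKM at D7, 59.9 FPKM at D8, 14.5 and 10.6 FPKM at D10 and 1.80 and 3.53 FPKM at D12. All 16 NanogWT libraries lay at 1.90 FPKM or less, and mES at 0.227 FPKM. The NanogBiD libraries from D5 to D10 were thus all above every NanogWT library, and at D7 and D8 Wnt8a was the leading ligand, with 36.0% to 51.8% of the summed ligand FPKM. The difference was 1.90 ± 0.29 at D5 (9.6e-05), 4.78 ± 0.29 at D7 (5.8e-10), 3.31 ± 0.29 at D10 (1.7e-08) and 1.76 ± 0.29 at D12 (4.2e-05). As Wnt8a passed the filter through NanogBiD alone, these differences and their p-values are a description. The fall from D7 to D10 (-1.06 ± 0.29, 6.0e-03) was no longer called without NanogBiD D10 replicate 2 (-0.86), without NanogBiD D7 replicate 1 (-0.95), with a pseudocount of 0.1, or after rescaling to a common total.

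Wnt6, a ligand of epithelia, was at 1.74 and 2.81 FPKM at D5 with NanogBiD, 11.9 and 11.0 FPKM at D7, 19.3 FPKM at D8, 1.43 and 3.05 FPKM at D10 and 0.626 and 1.13 FPKM at D12. With NanogWT it reached 2.43 and 1.64 FPKM at D8 and was 1.08 FPKM or less on the other days. The difference was 1.66 ± 0.25 at D5 (7.5e-05) and 3.30 ± 0.25 at D7 (8.4e-09), and Wnt6 fell by 1.98 ± 0.25 from D7 to D10 with NanogBiD (2.9e-06). At D12 the values overlapped and the difference was 0.05 ± 0.25 (0.89). The nearest other gene of the 37 on chromosome 1 (GRCm38), Wnt10a, lies 6696 bases from Wnt6, and went from 0 FPKM in both NanogBiD D0 libraries to 1.51 and 0.909 FPKM at D7 and 2.01 FPKM at D8. With NanogWT it stood at 1.32 and 1.22 FPKM at D8, and MEF held 1.97 and 1.04 FPKM. The NanogBiD rise of Wnt10a from D0 to D7 (1.13 ± 0.15, 3.6e-06) was its only call in the time course. It was not reached without NanogBiD D7 replicate 1 (0.93) or after quantile normalization.

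Wnt4, Wnt3 and Wnt7b rose and stayed up with NanogBiD. In mES they were low, at 0.342, 0.222 and 0.452 FPKM, and MEF held 6.09 and 5.27 FPKM of Wnt4. Wnt4, a ligand of kidney and gonad development, was at 0.499 and 0.385 FPKM at D0, 4.87 and 2.80 FPKM at D7 and 12.4 and 18.8 FPKM at D12, where it was the leading ligand. With NanogWT it was still at 0.727 and 0.933 FPKM at D7, then at 13.7 and 10.7 FPKM at D8 and 9.90 and 12.3 FPKM at D12. Both combinations therefore ended above their D0 level, by 3.50 ± 0.27 (1.5e-09) and 2.90 ± 0.27 (6.2e-08), and differed at D7 (1.37 ± 0.27, 7.2e-04). At D12 the difference was 0.43 ± 0.27 (0.19). Wnt3, which acts in gastrulation, was 0.253 FPKM or less at D0 with NanogBiD, 2.42 and 2.78 FPKM at D7 and 3.33 and 4.34 FPKM at D12. NanogWT libraries reached 1.04 FPKM at most. Since Wnt3 too passed the filter through NanogBiD alone, its differences between the combinations are a description. The Wnt3 difference was 1.49 ± 0.20 at D7 (1.2e-05), 2.07 ± 0.20 at D10 (5.4e-08) and 1.36 ± 0.20 at D12 (1.2e-05), and the earlier call at D5 (1.26 ± 0.20) was lost without NanogBiD D5 replicate 2 (0.97). Wnt3 overlaps Wnt9b in the annotation, and Wnt9b was at 0.255 FPKM or less in all time-course libraries. Wnt7b, which acts in lung and placenta, appeared late: 0.114 and 0.0836 FPKM at D7, 1.00 FPKM at D8, 3.49 and 5.18 FPKM at D10 and 8.12 and 8.43 FPKM at D12 with NanogBiD, against 1.45 and 2.38 FPKM at D12 with NanogWT. Its difference was 2.06 ± 0.17 at D10 (7.1e-09) and 1.69 ± 0.17 at D12 (9.9e-08). The 4 neural markers (Tubb3, Sox1, Pax6 and Nes) summed to 387 to 558 FPKM with NanogBiD at D12 and 269 to 326 FPKM with NanogWT, and its part in the late ligands was not tested.

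Another group of ligands was higher with NanogWT after D7. Wnt9a, a ligand of joint tissue, stood at 3.32 and 2.44 FPKM at D7 with NanogWT, 17.7 and 14.7 FPKM at D10 and 11.8 and 7.51 FPKM at D12, whereas it stayed between 1.46 and 2.40 FPKM in the 5 NanogBiD libraries from D8 on. The difference was -2.72 ± 0.23 at D10 (1.3e-08) and -2.03 ± 0.23 at D12 (5.8e-07). Wnt2b was 3.14 and 3.36 FPKM with NanogWT at D10 and 0.396 and 0.682 FPKM with NanogBiD (-1.47 ± 0.20, 3.5e-06); the D12 call (-1.16 ± 0.20) was not kept without NanogWT D12 replicate 2 (-0.95). Wnt11, a ligand of cell movement, was 2.50 and 2.23 FPKM against 0.424 and 0.174 FPKM at D10 (-1.38 ± 0.23, 4.0e-05), and its D12 call (-1.06 ± 0.23) was not kept without NanogWT D12 replicate 1 (-0.92). Both Wnt2b and Wnt11 passed the filter through NanogWT alone, so these differences are a description. Wnt5b, a relative of Wnt5a, stood in one order at D7 and in the other from D8 on. It was 4.82 and 3.79 FPKM with NanogBiD against 2.03 and 1.39 FPKM with NanogWT at D7, then 2.81 FPKM against 7.60 and 8.54 FPKM at D8. The D7 difference (0.97) missed the limit of 1, and the D10 difference (-1.02 ± 0.21, 4.3e-04) was -0.99 without NanogBiD D10 replicate 1. Its rise from D0 to D7 was 1.90 ± 0.21 with NanogBiD (5.4e-07), and its rise from D7 to D10 was 1.36 ± 0.21 with NanogWT (7.5e-05). Wnt2b and Wnt5b overlap protein-coding neighbours (St7l and Fbxl14 among them) and Wnt11, Wnt9a, Wnt6 and Wnt7b overlap noncoding RNAs. Without stated strand, reads of such pairs cannot be told apart.

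Wnt2 and Wnt16 were at their highest at D0 within each time course. Wnt2 stood at 4.02 and 3.87 FPKM at D0 with NanogWT and at 1.14 and 0.633 FPKM with NanogBiD, already apart (-1.40 ± 0.16, 1.1e-04), and at 0.122 and 0.133 FPKM with NanogWT at D7 (-2.13 ± 0.16 against D0, 1.9e-09). The 2 MEF samples held 1.02 and 0.538 FPKM, so the NanogWT D0 libraries lay above MEF. Because Wnt2 passed the filter through NanogWT alone, its D0 difference between the combinations is a description. Wnt16 fell from D0 to D7 by 1.36 ± 0.19 with NanogBiD (1.1e-05) and by 1.43 ± 0.19 with NanogWT (6.4e-06), from 1.92 and 3.19 FPKM at D0 to 0.538 and 0.200 FPKM at D7 with NanogBiD and from 2.53 and 1.87 FPKM to 0.242 and 0.123 FPKM with NanogWT. Among the remaining ligands Wnt1 reached 1.90 FPKM and Wnt7a 1.70 FPKM, both in NanogBiD libraries from D8 on, with no call in any of the 15 time-course comparisons. Wnt3a, Wnt8b, Wnt9b and Wnt10b did not pass the filter, and their highest time-course values were 1.16, 0.441, 0.255 and 0.497 FPKM, while MEF held 3.66 and 2.25 FPKM of Wnt10b.

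The receptor that moved most was Fzd10, which is known from the early neural tube and limb. It was at 0.437 FPKM or less in NanogBiD libraries up to D3, then at 2.53 and 2.52 FPKM at D5, 30.4 and 31.3 FPKM at D7, 51.0 FPKM at D8, 61.6 and 111 FPKM at D10 and 72.7 and 101 FPKM at D12. With NanogWT it was 0.634 FPKM or less up to D7, 0.459 and 3.35 FPKM at D8, 4.16 and 25.8 FPKM at D10 and 32.5 and 25.9 FPKM at D12. MEF held 0.351 and 0.214 FPKM, and mES 30.3 FPKM. No NanogWT library reached the NanogBiD level of the same day from D5 on, and from D8 on Fzd10 was the leading Frizzled gene with NanogBiD, at 33.4% to 48.6% of the summed Frizzled FPKM. It rose from D0 to D7 by 4.69 ± 0.51 with NanogBiD (3.7e-07), and from D0 to D12 by 6.13 ± 0.51 with NanogBiD (4.0e-09) and 4.79 ± 0.51 with NanogWT (3.5e-07). Between the combinations the difference was 4.49 ± 0.51 at D7 (1.9e-06) and 2.83 ± 0.51 at D10 (9.6e-05). The D10 value rests on a wide NanogWT pair, and was 1.64 without NanogWT D10 replicate 1. The D5 difference (1.65 ± 0.51, 0.031) was lost when any 1 of its 4 libraries was left out (1.61 to 1.69). At D12 the difference was 1.53 ± 0.51 (0.017), which was not called without NanogBiD D12 replicate 2 (1.30) or NanogWT D12 replicate 2 (1.37), or with a pseudocount of 0.1.

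**Figure D2:**
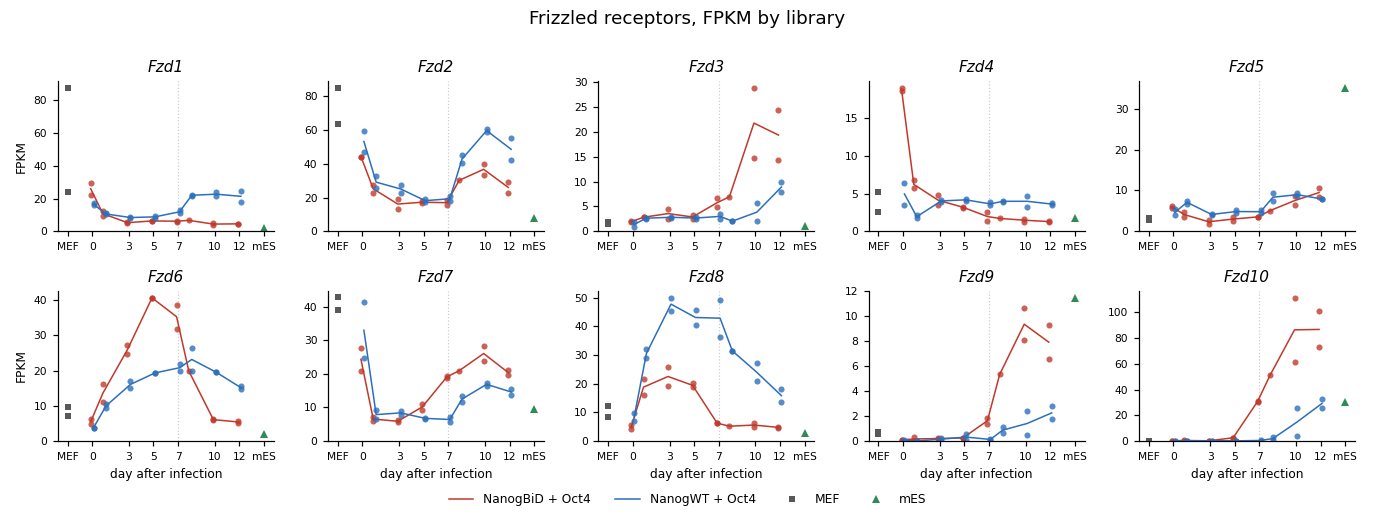
FPKM of the 10 Frizzled receptors by library (points) and group mean (lines) over the days after infection, in the same layout as the ligands (NanogBiD red, NanogWT blue, MEF squares, mES triangle, dotted line at D7, own axis from 0 in each panel). Fzd10, Fzd9 and Fzd3 climbed with NanogBiD, Fzd8 was higher with NanogWT on every day, D0 included, and Fzd6 with NanogBiD was highest at D5, at 40.7 and 40.5 FPKM.

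Fzd9 and Fzd3 rose with NanogBiD too. Fzd9 went from 0.0583 and 0.116 FPKM at D0 to 1.38 and 1.87 FPKM at D7 and 6.53 and 9.30 FPKM at D12, against 2.77 and 1.73 FPKM at D12 with NanogWT and 11.5 FPKM in mES. Its difference was 1.22 ± 0.29 at D7 (3.5e-03), 2.22 ± 0.29 at D10 (2.5e-06) and 1.46 ± 0.29 at D12 (3.3e-04). Fzd3, a receptor of axon guidance, stood at 2.02 and 1.85 FPKM at D0 and at 14.7 and 28.8 FPKM at D10 with NanogBiD, and at 2.03 and 5.69 FPKM at D10 with NanogWT (2.27 ± 0.34, 1.3e-05). Unlike Fzd9 and Fzd10 it was low in mES, at 1.02 FPKM. The Fzd3 difference at D12 (1.00 ± 0.34) did not hold without NanogBiD D12 replicate 2 (0.64) or NanogWT D12 replicate 1 (0.85).

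Fzd1, Fzd4 and Fzd8 lay lower with NanogBiD than with NanogWT in the later days. Fzd1 fell from 29.5 and 22.4 FPKM at D0 to 6.37 and 5.98 FPKM at D7 and 4.70 and 4.42 FPKM at D12 (-2.27 ± 0.16 from D0 to D12, 4.2e-10). NanogWT libraries held 17.2 and 15.7 FPKM at D0, 12.7 and 11.1 FPKM at D7 and 24.6 and 18.1 FPKM at D12, and the difference at D12 was -1.99 ± 0.16 (6.5e-09). Fzd4, a receptor of vessel growth, was already apart at D0, with 19.0 and 18.6 FPKM in NanogBiD against 3.48 and 6.41 FPKM in NanogWT (1.78 ± 0.22, 1.6e-04), and MEF held 5.25 and 2.55 FPKM. It then fell with NanogBiD to 2.60 and 1.32 FPKM at D7 (-2.78 ± 0.22, 4.4e-09), while NanogWT stood at 3.84 and 3.43 FPKM. The D12 difference of Fzd4 (-1.01 ± 0.22, 6.8e-04) was under 1 in size without NanogBiD D12 replicate 2 (-0.94) or NanogWT D12 replicate 1 (-0.97), and Fzd4 overlaps the protein-coding gene Tmem135. Fzd8 was 21.6 and 16.1 FPKM at D1 with NanogBiD and 32.2 and 29.1 FPKM with NanogWT, after 9.73 FPKM or less in the 4 D0 libraries. At D7 it was 6.33 and 6.16 FPKM with NanogBiD and 49.4 and 36.4 FPKM with NanogWT (-2.58 ± 0.20, 1.2e-08), and at D12 4.83 and 4.69 FPKM against 18.0 and 13.6 FPKM (-1.54 ± 0.20, 2.6e-06).

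Fzd6, Fzd7 and Fzd2 changed course within the series. Fzd6, a receptor of planar polarity, reached 40.7 and 40.5 FPKM with NanogBiD at D5 from 6.22 and 4.70 FPKM at D0, and dropped to 5.83 and 6.29 FPKM at D10 (-2.36 ± 0.16 from D7, 2.6e-09). With NanogWT it rose to 19.7 and 21.9 FPKM at D7 and was 14.8 and 15.5 FPKM at D12, so that the sign between the combinations turned from 1.03 ± 0.16 at D5 (1.4e-04, under 1 after quantile normalization) to -1.33 ± 0.16 at D12 (1.3e-06). Fzd7, a receptor known from human pluripotent stem cells, was 5.90 and 7.22 FPKM in NanogBiD at D1 after 20.8 and 27.8 FPKM at D0. It was back at 18.8 and 19.4 FPKM at D7, when NanogWT stood at 5.61 and 7.20 FPKM (1.45 ± 0.20, 2.2e-05). NanogWT libraries were later at 15.5 and 13.7 FPKM at D12, and the difference there was 0.46 ± 0.20 (0.067). Fzd2 fell from D0 to D7 in both, by 1.34 ± 0.19 (1.3e-05) and 1.41 ± 0.19 (6.9e-06), to between 15.4 and 20.7 FPKM, and rose again by D10 with NanogWT, to 58.8 and 60.4 FPKM (1.58 ± 0.19 from D7, 4.5e-06). With NanogBiD it stood at 33.3 and 40.1 FPKM at D10 (1.07 ± 0.19 from D7, 1.9e-04), a call lost without NanogBiD D10 replicate 2 (0.94) or NanogBiD D7 replicate 2 (0.95). Fzd5 lay between 1.89 and 10.7 FPKM in the time course with no call in any of the 15 comparisons, and at 35.1 FPKM in mES.

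Sfrp1 rose in both combinations and was the most abundant of the Sfrp and Dkk genes in every library from D1 on, while at D0 and in MEF Dkk3 or Dkk2 stood higher. It went from 10.6 and 7.77 FPKM at D0 to 79.3 and 65.3 FPKM at D7 with NanogBiD (2.85 ± 0.21, 1.9e-09) and from 4.63 and 3.51 FPKM to 79.4 and 75.4 FPKM with NanogWT (3.96 ± 0.21, 1.9e-11). The values overlapped at D7 (-0.10 ± 0.21, 0.78), and the difference at D0 (1.00 ± 0.21, 0.014) was lost without NanogBiD D0 replicate 1 (0.80) or NanogWT D0 replicate 2 (0.84). At D8 NanogWT held 130 and 110 FPKM and NanogBiD 71.0 FPKM, and mES stood at 103 FPKM. Sfrp2, another ligand-binding inhibitor, was lowest at D1 and D3 with NanogBiD and from D1 to D7 with NanogWT. With NanogBiD it was 0.991 and 1.26 FPKM at D1, 8.75 and 12.8 FPKM at D7 and 15.5 and 18.2 FPKM at D12, and with NanogWT 1.89 and 3.19 FPKM at D7 and 14.3 and 11.1 FPKM at D12. The difference was 1.74 ± 0.28 at D7 (1.1e-04) and 1.30 ± 0.28 at D10 (6.3e-04). At D12 it was 0.39 ± 0.28 (0.27). Sfrp4 was lower with NanogBiD: 2.07 and 1.62 FPKM against 7.94 and 9.51 FPKM at D10 (-1.77 ± 0.36, 3.2e-04), and 1.13 and 1.52 FPKM against 6.62 and 10.2 FPKM at D12 (-1.99 ± 0.36, 1.2e-04). Its D7 call (-1.23 ± 0.36) rested on NanogWT D7 replicate 2, without which it was -0.64, and on NanogBiD D7 replicate 1, without which the adjusted p missed 0.05 at -1.01. The earlier call at D1 (-1.41) was lost when any 1 of its 4 libraries was left out. Sfrp5 was 1.03 and 0.939 FPKM at D7 with NanogBiD, 2.17 FPKM at D8 and 0.603 and 0.499 FPKM at D10, and 0.193 FPKM or less in all NanogWT libraries. No comparison was called, since its differences of 0.94 at D7 and 0.81 at D12 were under 1.

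Among the Dkk genes, Dkk3 fell from D0 to D7 in both arms and rose again from D7 to D10 with NanogWT (1.63 ± 0.19, 3.0e-06). Dkk3 was 13.4 and 16.8 FPKM at D0 with NanogBiD and 4.87 and 4.02 FPKM at D7 (-1.56 ± 0.19, 1.8e-06). With NanogWT the same fall (-1.17 ± 0.19, 5.6e-05) was -0.82 without NanogWT D7 replicate 2. By D10 NanogWT stood at 22.4 and 19.0 FPKM against 3.92 and 3.48 FPKM with NanogBiD (-2.20 ± 0.19, 1.7e-08). The D12 call (-1.03 ± 0.19) was not kept without NanogBiD D12 replicate 1 (-0.86) or NanogWT D12 replicate 1 (-0.85). MEF held 63.0 and 33.8 FPKM. Dkk2 was low and uneven, with 1.02 and 3.17 FPKM against 4.93 and 13.8 FPKM at D0 (-1.69 ± 0.37, 0.018), and this call was lost without NanogBiD D0 replicate 1 (-1.17) or NanogWT D0 replicate 2 (-1.03). The Dkk2 calls at D1, D3 and D12 (-1.43, -1.38 and -1.04) were each lost when some single library was left out. Dkk1, the best known Lrp antagonist and a target of beta-catenin, was at 3.42 FPKM in the single NanogBiD D8 library and 1.80 and 0.724 FPKM at D10, and at 0.271 FPKM or less in all NanogWT libraries. Its D10 difference (1.09 ± 0.18, 4.4e-05) was not called without NanogBiD D10 replicate 1 (0.74). As Dkk1 passed the filter through NanogBiD alone, that difference is a description. Dkk4 reached 0.492 FPKM at most.

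**Figure D3:**
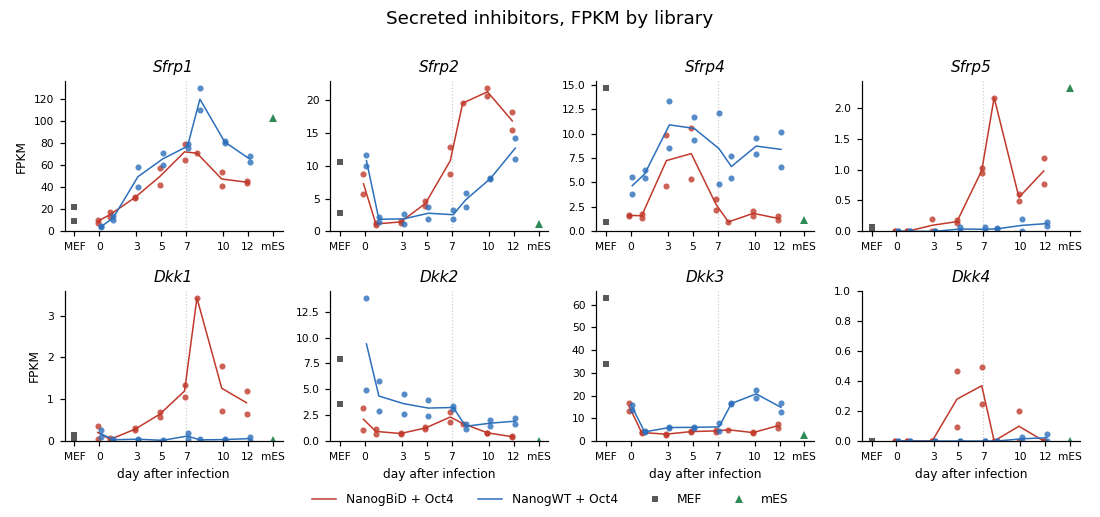
FPKM of the 4 Sfrp and 4 Dkk genes by library (points) and group mean (lines) over the days after infection, in the same layout as the ligands (NanogBiD red, NanogWT blue, MEF squares, mES triangle, own axis from 0). Sfrp1 rose in both combinations to between 65.3 and 79.4 FPKM at D7, while Sfrp4 and Dkk3 were higher with NanogWT at D10.

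The number of these genes called between the combinations was lowest at D3 and highest at D10. Called members were 4 of 32 tested at D0, 2 higher and 2 lower with NanogBiD, where 0.76% of all 16842 genes were called (0.422% higher and 0.338% lower). At D1 there were 3 (1 higher and 2 lower; 1.33% of all genes, 0.368% higher and 0.962% lower), and at D3 2, both lower (3.7%; 1.25% higher and 2.45% lower). At D5 there were 6 (5 higher and 1 lower; 6.48%, 3.2% higher and 3.28% lower), and at D7 11 (8 higher and 3 lower; 10.4%, 5.79% higher and 4.65% lower), which became 18 with a pseudocount of 0.1. At D10 there were 18 (8 higher and 10 lower; 27.8%, 15.4% higher and 12.3% lower), and at D12 17 (6 higher and 11 lower; 23.4%, 13.5% higher and 9.97% lower). The counts at D0, D1 and D3 were small and unsteady, falling to 2, 1 and 0 without NanogBiD D0 replicate 1, NanogBiD D1 replicate 1 and NanogBiD D3 replicate 2. As shares of the 32 tested, these were 12.5%, 9.38%, 6.25%, 18.8%, 34.4%, 56.2% and 53.1%. For a gene of these families that passed the filter only through the arm where it is high, the filter favoured a difference towards that arm. The genes of this kind named above, Wnt8a and Wnt3 among them, are included in the counts, so the shares are a description. Among the families at D7, 4 of 15 tested ligands and 3 of 10 receptors were called higher, and 1 of each lower. The 6 called higher at D12 (Fzd3, Fzd9, Fzd10, Wnt3, Wnt7b and Wnt8a) were all among the 8 called higher at D10, and 9 of the 11 called lower at D12 were among the 10 called lower at D10. No member was called on opposite sides at D7 and D10, or at D10 and D12. The same overlaps were not counted over all genes, so they show nothing particular to these genes. The median difference of the 32 was 0.30 at D7 beside 0.08 for all genes tested, and -0.09 at D12 beside 0.17.

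**Figure D4:**
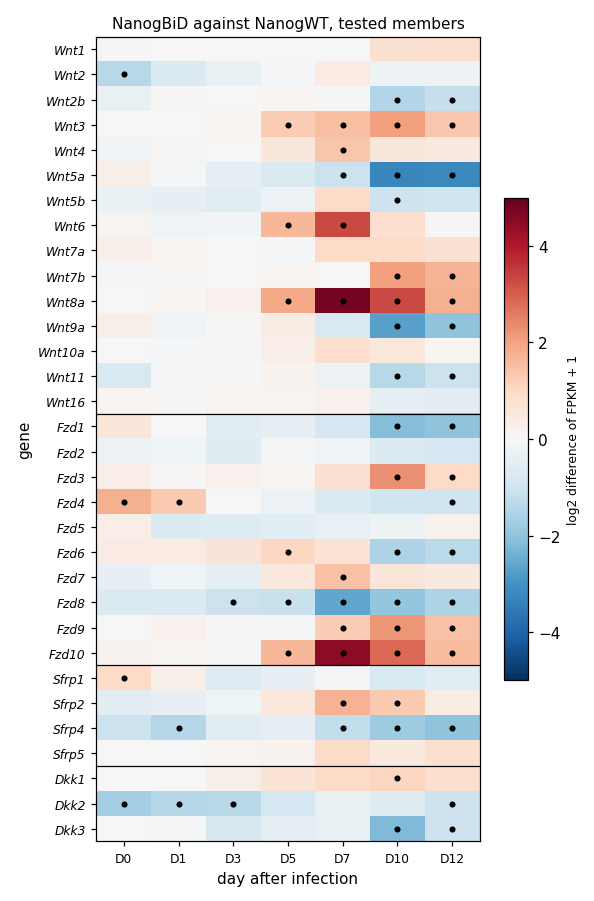
Log2 difference of FPKM + 1 between NanogBiD and NanogWT (red higher with NanogBiD, blue lower) for the 32 tested genes on each day with 2 libraries per group, in the order ligands, receptors, Sfrp and Dkk; black dots mark calls. The highest differences were those of Wnt8a (4.78) and Fzd10 (4.49) at D7, and the lowest those of Wnt5a at D10 (-3.27) and D12 (-3.23). Of these, Wnt8a passed the filter through NanogBiD alone.

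Within each arm, 17 of the 32 members changed from D0 to D7 with NanogBiD (11 higher and 6 lower; 18.8% of all genes were called, 12.7% higher and 6.15% lower) and 10 with NanogWT (3 higher and 7 lower; 17.7%, 12% higher and 5.69% lower). All 4 smooth muscle markers were called lower over the same days in both arms (medians -5.03 with NanogBiD and -5.85 with NanogWT), their sum going from 1070 to 3009 FPKM in the D0 libraries to 21.7 to 28.4 FPKM at D7, and that of the macrophage markers from 49.1 to 138 FPKM to 4.66 to 15.0 FPKM, and their part in the members' changes was not tested. The change itself differed between the combinations for 15 members (9 higher with NanogBiD and 6 lower; 10.1% of all genes, 5.2% higher and 4.88% lower). From D7 to D10, across the change of medium, 9 members rose and none fell with NanogWT (10.3% of all genes, 5.69% higher and 4.59% lower), namely Dkk3, Fzd2, Fzd7, Fzd10, Sfrp2, Wnt2b, Wnt4, Wnt5b and Wnt9a. Relative depth of these NanogWT libraries was 0.978 and 1.06 at D7 and 1.85 and 3.08 at D10, so medium, day and depth cannot be told apart. In the same comparison 8 of 12 fibroblast markers (median 1.43) and 3 of 4 smooth muscle markers (median 1.68) were called higher and none of either lower, and their part in the members' rises was not tested. With NanogBiD 6 rose and 4 fell (15.7%, 7.96% higher and 7.78% lower). By D12, 16 had changed from D0 with NanogBiD (9 higher and 7 lower; 34.7% of all genes, 24.6% higher and 10.2% lower) and 14 with NanogWT (10 higher and 4 lower; 16.2%, 12.2% higher and 3.95% lower). The split of higher and lower depended on the scale: with NanogBiD it was 16 and 8 with a pseudocount of 0.1 and also after rescaling to a common total, and with NanogWT 15 and 3 after rescaling. The change from D0 to D12 differed for 12 (5 higher and 7 lower; 23.9%, 13.4% higher and 10.5% lower). The comparisons within an arm share their D0 or D7 libraries with those between arms. The median of all tested genes in the D12 against D0 comparisons was 0.34 with NanogBiD and 0.19 with NanogWT, beside 0.60 for the members in both.

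The rest of the pathway was described with lists of named genes, some of which share members (Notum, Lef1, Tcf7, Lgr5, Rnf43, Znrf3 and Apcdd1 are also counted as targets). The same filter was used, and for a listed gene that passed it through a single arm it favoured a difference towards that arm, so the list counts are a description. Of 17 direct beta-catenin targets tested, 12 were called higher with NanogBiD at D7 and none lower (5.79% of all genes were called higher and 4.65% lower), with a list median of 1.84 beside 0.08 for all genes. Sp5, a repressor and target of the pathway, was 32.1 and 57.5 FPKM at D7 with NanogBiD and 0.836 and 1.38 FPKM with NanogWT (4.39 log2). Cdx1, a posterior patterning factor, was 29.6 and 35.3 FPKM against 0.216 and 0.334 FPKM (4.71), Tnfrsf19 19.6 and 20.4 FPKM against 0.698 and 0.859 FPKM (3.57), and T, the mesoderm factor Brachyury, 3.71 and 4.20 FPKM against 0.0169 FPKM or less (2.29). In the D8 library Sp5 stood at 63.7 FPKM and Cdx1 at 33.5 FPKM, but T at 0.502 FPKM, and at D12 Cdx1 was down to 8.01 and 10.9 FPKM. Sp5 and Cdx1 were high with NanogBiD at D7 and D8, the days on which Wnt8a and Wnt6 were highest. T was low at D8, and whether any of these follows from another was not tested. Axin2, the most general target, rose in both arms from D0 to D7, by 3.51 with NanogBiD and 2.82 with NanogWT, and at D12 stood at 16.2 and 16.3 FPKM against 16.1 and 19.4 FPKM. At D12, 5 of the 17 targets were called higher with NanogBiD and 1, Apcdd1, lower (13.5% and 9.97% of all genes). From D0 to D7, 13 of the 17 were called higher and 1 lower with NanogBiD (list median 2.78; 12.7% and 6.15% of all genes), and 3 higher and none lower with NanogWT (0.35; 12% and 5.69%).

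Of the 4 TCF/LEF factors, Tcf7 and Lef1 were called higher with NanogBiD at D5, D7, D10 and D12. Over all genes 3.2%, 5.79%, 15.4% and 13.5% were called higher on these days. At D7 Tcf7 was 21.1 and 24.2 FPKM against 3.09 and 3.55 FPKM (2.45), and Lef1 10.3 and 12.6 FPKM against 0.853 and 1.16 FPKM (2.63). Of the 2 genes for ligand release, Porcn, which acylates Wnt proteins, was higher with NanogBiD at D7 (1.66) and D12 (1.30), and Wls, which carries them to the surface, was lower at D12, at 21.9 and 25.3 FPKM against 84.3 and 87.1 FPKM (-1.82), with 4.48 FPKM in mES. Among 8 R-spondin genes, receptors and turnover factors tested, 1 was called higher with NanogBiD at D7 and 1 lower (5.79% and 4.65% of all genes). Rspo3 was 2.74 and 3.77 FPKM against 0.316 and 0.537 FPKM (1.57), and Rspo1 0.460 and 0.900 FPKM against 9.35 and 10.4 FPKM (-2.70). From D0 to D7 with NanogBiD 2 were called higher, the R-spondin receptors Lgr5 (1.06) and Lgr6 (1.35), and 2 lower, and with NanogWT 1 higher (Rspo1, 3.25) and 2 lower. Over all genes 12.7% were called higher and 6.15% lower with NanogBiD, and 12% and 5.69% with NanogWT. Rspo2 and Rspo3, both agonists, were the 2 that fell in each arm, Rspo3 by 2.27 and 3.68. Of 6 co-receptors and other Wnt-binding receptors, none was called at D7 and 1 at D12 (Ror1, lower with NanogBiD at -1.21). Over all genes 10.4% were called at D7 and 23.4% at D12. Lrp5 and Lrp6 had no call in any of the 15 comparisons. Of 11 genes inside the cell, none was called between the combinations at D7 and only Dvl2 at D12 (1.84), beside the same 10.4% and 23.4% of all genes. Ctnnb1, Gsk3a, Gsk3b and Axin1 had no call in the 15 comparisons. Of 9 other inhibitors tested, 4 were called higher with NanogBiD at D7 and none lower (5.79% and 4.65% of all genes): Notum, which removes the lipid from Wnt proteins (2.55), Draxin (1.09), Sostdc1 (1.12) and Wif1 (1.39). At D10 4 were called higher and 3 lower (15.4% and 12.3% of all genes), and at D12 1 higher (Notum, 1.27) and 2 lower (Apcdd1, at 29.7 and 37.1 FPKM against 185 and 189 FPKM, and Tpbg). Over all genes 13.5% were called higher and 9.97% lower at D12.

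In the established iPSC, none of the 21 members tested was called between the combinations with limma, and none had an unadjusted p under 0.05; over all 12456 genes tested, 0% were called and 201 had an unadjusted p under 0.05. The 12 samples carry 2 labels per combination, iPSC1 and iPSC2, which are called lines here although the labels do not say what they stand for. The headers give iPSC1 and iPSC2 different passages, so that a difference by passage would look like one by line. Passage also differs within NanogWT iPSC1. A missed threshold with this number of lines does not show that the 2 kinds of iPSC were alike. Against MEF, 21 of 27 tested members were called, 4 higher and 17 lower in iPSC (40.7% of 13312 genes were called, 21.9% higher and 18.8% lower). The members' median was -1.27 beside 0.22 for all genes. Without MEF replicate 1 the count was 11: Fzd4, Sfrp2, Sfrp4, Wnt4 and Wnt11 were no longer called, and Wnt16, Dkk2, Wnt10b, Wnt2b and Wnt10a no longer passed the filter and were not tested. These last 5 reached 1 FPKM in the 2 MEF samples alone, so that their direction was set by the filter, and the count and median above include them.

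The 4 higher in iPSC were Fzd10, Fzd5, Sfrp1 and Fzd9. Fzd10 was 0.293 and 0.178 FPKM in MEF and between 13.7 and 30.2 FPKM in all 12 iPSC samples (4.30 ± 0.19, 1.5e-09), with 22.1 FPKM in mES. Fzd5 was 2.06 and 2.57 FPKM in MEF and between 14.0 and 41.9 FPKM in iPSC (3.21 ± 0.31, 1.4e-06). Sfrp1 stood at 17.2 and 7.91 FPKM in MEF and between 33.7 and 67.1 FPKM in iPSC (2.03 ± 0.28, 3.3e-05), and Fzd9 at 0.470 and 0.672 FPKM and between 1.99 and 7.43 FPKM (1.60 ± 0.29, 2.7e-04). No iPSC sample of these 4 genes overlapped MEF. Fzd7 was high on both sides, at 29.5 and 33.0 FPKM in MEF and between 7.14 and 26.8 FPKM in iPSC (-0.96 ± 0.33, 0.020), and missed the limit of 1.

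Among the 17 lower, Wnt5a went from 30.0 and 32.5 FPKM in MEF to 1.89 FPKM or less in 11 iPSC samples and 6.60 FPKM in the 12th (-4.37 ± 0.53, 1.0e-05). Fzd1 was 65.1 and 18.3 FPKM in MEF and 7.46 FPKM or less in iPSC (-4.46 ± 0.56, 1.3e-05). Fzd2 went from 64.6 and 48.6 FPKM to between 0.758 and 6.17 FPKM (-4.25 ± 0.33, 2.0e-07), and Dkk3 from 56.7 and 31.2 FPKM to between 1.27 and 6.28 FPKM (-3.52 ± 0.37, 2.6e-06). Wnt16 (-2.65 ± 0.26), Dkk2 (-2.40 ± 0.20), Wnt10b (-1.99 ± 0.17), Wnt2b (-1.70 ± 0.19), Wnt9a (-1.63 ± 0.31), Fzd6 (-1.48 ± 0.14), Fzd8 (-1.45 ± 0.17) and Wnt10a (-1.13 ± 0.15) were lower too, of which Wnt16, Dkk2, Wnt10b, Wnt2b and Wnt10a lay at 0.369 FPKM or less in all iPSC samples. Wnt10b and Wnt1 lie 11650 bases apart on chromosome 15, and Wnt1 was 0.0359 FPKM or less in this table. Of the other 5 calls, Sfrp2 (-1.27) was -0.53 without MEF replicate 1 and -2.02 without MEF replicate 2. Sfrp4 (-1.37) was 0.10 and -2.84 in the same way. Fzd4 (-1.25) and Wnt11 (-1.17) were -0.87 and -0.96 without MEF replicate 1. Wnt4 (-1.92) was not called without MEF replicate 1 (-1.85, limma adjusted p = 0.075) or without MEF replicate 2 (0.058). The high Wnt5a, Wnt4, Fzd1 and Fzd2 values in iPSC were in the NanogBiD iPSC1 sample 9#, whose 12 fibroblast markers summed to 1937 FPKM, against 189 to 346 FPKM in the other 5 NanogBiD samples.

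**Figure D5:**
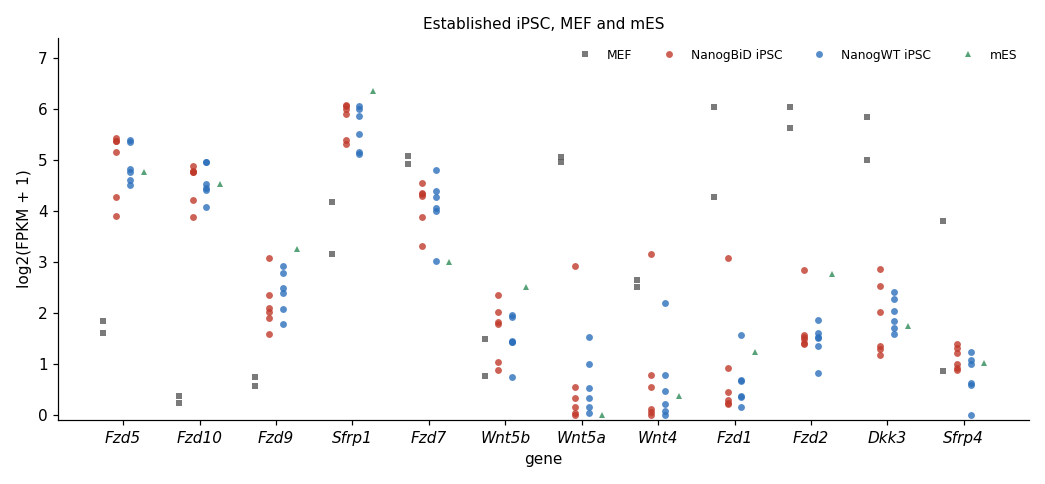
Log2(FPKM + 1) of 12 genes in MEF (squares, 2 samples), NanogBiD iPSC (red, 6), NanogWT iPSC (blue, 6) and mES (triangle, 1), each point a sample. Fzd5, Fzd10, Fzd9 and Sfrp1 lay above MEF in all 12 iPSC samples, and the single raised red point for Wnt5a, Wnt4, Fzd1 and Fzd2 is the same sample.

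In mES Fzd5 led with 35.1 FPKM, followed by Fzd10 (30.3), Fzd9 (11.5), Fzd7 (9.59) and Fzd2 (8.03). With NanogBiD at D12 Fzd10 led with 72.7 and 101 FPKM, followed by Fzd2 (22.6 and 29.4), Fzd7 (21.2 and 19.6) and Fzd3 (14.3 and 24.4), whose values overlap or nearly meet, so that their order is not set. With NanogWT at D12 Fzd2 led with 55.1 and 42.0 FPKM and Fzd10 followed with 32.5 and 25.9 FPKM. The summed ligand FPKM was 11.8 in mES, 44.7 ± 7.0 (SD, n = 2) with NanogBiD and 98.8 ± 3.4 with NanogWT at D12, and 50.04 ± 1.7 in MEF.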

How the data were processed

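The genes were taken from 2 deposited tables of FPKM. According to the methods and the submitters' processing notes, the authors trimmed reads with Trim Galore 0.6.4, aligned them to mm10 with HISAT2 2.2.1 and made the FPKM values with StringTie 2.2.1, per gene for the time course, MEF and mES and per transcript for iPSC, MEF and mES. The annotation and strand setting are not given in the sources used here. The 2 tables were normalized separately and were tested separately. Transcripts were summed by symbol.

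Groups follow the labels. Genes that reached 1 FPKM in 2 or more of the samples fitted were tested with limma 3.58.1 (R 4.3.3) on log2(FPKM + 1). The 16 time-course groups were fitted in 1 model. The combinations were compared in a model of the 12 iPSC samples alone, with line as covariate. A separate model of iPSC and MEF set the mean of the iPSC groups (combination by line) against MEF. Calls needed a Benjamini-Hochberg adjusted p under 0.05 over all genes tested and a log2 difference of at least 1. NanogBiD D8, a single library, and mES are described without a test. Relative depth was read from the smallest steps of low FPKM values. Nothing in the labels says that replicates came from separate cultures, so p-values measure only the spread between these samples, which may be technical. Scripts were tested on simulated data.

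All members are accounted for. Those called in at least 3 time-course comparisons or in an iPSC comparison are given by library for some days or groups, though not for each call. The others are given mostly by range, and other pathway genes come from 7 lists. The members, the lists and the fibroblast, pluripotent cell, endothelial, macrophage, epithelial, primitive endoderm, neural and smooth muscle markers were chosen with earlier results of these data known. Promoter sequences and positions are from RefSeq (GRCm38.p6, the coordinates of mm10). Alternatives were a pseudocount of 0.1, no filter, rescaling to a common total, quantile normalization, the replicate number as a block, each replicate left out, the fit to D0 to D7 alone (added after seeing the data), and the samples 1# and 1#-2 averaged.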

Additional observations from a re-analysis of the deposited data

Results flagged for a closer look

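Among 42 groups of 6 iPSC samples (21 genes in each combination), 7 held a sample whose gap to its nearest neighbour, as a share of the whole range, passed Dixon's limit of 0.625, which chance alone reaches in about 1 of 20 groups. The shares were taken on log2(FPKM + 1), not on the FPKM values printed beside them. All 7 came from just 2 samples. In the NanogBiD iPSC1 sample 9#, Fzd2 was 6.17 FPKM against 1.63 to 1.98 FPKM in the others (share 0.877), Wnt5a was 6.60 FPKM (0.813), Fzd1 was 7.46 FPKM (0.756) and Wnt4 was 7.86 FPKM (0.751). In the NanogWT iPSC1 sample 3#, Wnt4 was 3.59 FPKM (0.646), Wnt9a was 1.65 FPKM (0.641) and Fzd1 was 1.97 FPKM (0.630). The 12 fibroblast markers summed to 1937 FPKM in 9# and 679 FPKM in 3#, against 81.4 to 346 FPKM in the other 10 iPSC samples, and their part in these values was not tested.

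The change from D0 to D7 differed between the combinations for 15 genes by limma's test of the difference itself. It was greater with NanogBiD for Wnt8a (4.78 log2), Fzd10 (4.30), Wnt6 (3.15), Sfrp2 (2.27), Fzd7 (1.84), Wnt2 (1.81), Wnt4 (1.54), Wnt3 (1.49) and Wnt5b (1.30). It was lower for Fzd4 (-2.46), Fzd8 (-1.91), Fzd1 (-1.46), Wnt5a (-1.36), Sfrp1 (-1.11) and Wnt9a (-1.04). For Wnt2 the NanogWT libraries fell from a higher D0 level, and for Fzd4 the NanogBiD libraries did. Since Wnt8a, Wnt3 and Wnt2 passed the filter through a single arm, their values here are a description. The Wnt4 value was 1.22 and not called without NanogBiD D7 replicate 1, and those of Sfrp1 and Wnt9a were lost on leaving out several single libraries (to -0.90 and -0.66 at the least).

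The change from D0 to D12 differed for 12 genes. It was greater with NanogBiD for Wnt7b (1.79), Wnt8a (1.76), Fzd9 (1.42), Wnt3 (1.35) and Wnt2 (1.17), and lower for Wnt5a (-3.53), Fzd4 (-2.79), Fzd1 (-2.61), Wnt9a (-2.31), Fzd6 (-1.75), Sfrp1 (-1.55) and Dkk3 (-1.04). Of these, Wnt8a, Wnt3 and Wnt2 passed the filter through a single arm, so their values are a description. Fzd9 was not called without NanogBiD D12 replicate 2 or NanogWT D12 replicate 2 (1.19 in each case), Wnt2 was 0.97 without NanogBiD D0 replicate 2, and Dkk3 was under the limit on leaving out any of 4 libraries (-0.94 to -0.87).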

How the results depend on the processing

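Of 185 calls of these genes over all comparisons, 42 were lost when at least 1 library was left out, 7 with a pseudocount of 0.1, 6 with no filter, 6 after rescaling to a common total and 9 after quantile normalization, and no direction reversed under these 4 settings. Sfrp4 in iPSC against MEF ranged from -2.84 (without MEF replicate 2) to 0.10 (without MEF replicate 1), where its direction reversed. The number of members called at D7 was 18 with a pseudocount of 0.1, and at D1 1 with no filter. In the fit to D0 to D7 alone, chosen after seeing the data, the counts at D0, D1 and D3 were 2, 1 and 1. Leaving out 1 library gave 2 to 4 members at D0, 1 to 2 at D1, 0 to 2 at D3 and 11 to 23 for iPSC against MEF; the cause was not tested. With the replicate number as a block, 5 members were called at D0 and 17 for the change from D0 to D7, against 4 and 15 without it, and no call was lost. Deviations of same-numbered samples correlated between -0.065 and 0.39 over 7 days, over 0.1 on 4 of them, so that a pairing by number was not established. For iPSC and MEF no paired analysis was possible because the labels do not say what the numbers of the iPSC samples stand for. Scaling moved the median of all genes by over 0.1: after quantile normalization from 0.24 to -0.01 (D7 against D0, NanogBiD), from 0.12 to -0.05 (NanogWT), from 0.34 to -0.01 (D12 against D0, NanogBiD) and from 0.19 to -0.05 (NanogWT), and at D12 between the combinations from 0.17 to 0.07, and after rescaling from 0.12 to 0.27, from 0.19 to 0.36 and, in iPSC against MEF, from 0.22 to 0.03. Higher and lower calls then split as 4 and 6 (D7 against D0, NanogWT), 16 and 8 (D12 against D0, NanogBiD) and 15 and 3 (NanogWT) after rescaling, and as 1 and 2 at D0 after quantile normalization. With a pseudocount of 0.1 they were 6 and 7 (D7 against D0, NanogWT) and 16 and 8 (D12 against D0, NanogBiD). Only relative depth is known, so no counting interval is given.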
